A study of Homo sapiens with 5 samples.

Results

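The 10 genes described here encode the catalytic and RNA-binding parts of telomerase and the proteins that bind chromosome ends: TERT, DKC1 and NHP2 of the telomerase complex, the shelterin subunits TERF1, TERF2, POT1, ACD, TINF2 and TERF2IP, and the telomere helicase RTEL1. They were chosen by symbol and matched to Ensembl identifiers, and all 10 were found among the 31029 genes listed for both cell lines. RNA was sequenced from 2 libraries of 501Mel shBPTF cells, a human melanoma line that expresses MITF, and from 3 libraries of Hermes 3A shBPTF cells, an untransformed human melanocyte line. In both lines BPTF, the defining subunit of the NURF chromatin remodelling complex, had been silenced with a lentiviral short hairpin RNA followed by puromycin selection, and 2 hairpins against BPTF are described for the study without a statement of which one each library carried. Control shRNA libraries were not analysed here, so every difference below is one between the lines in the silenced state. A difference present before silencing and one that arose from it cannot be told apart. Only the Hermes 3A medium held added phorbol ester, cholera toxin, stem cell factor and endothelin, and line and medium cannot be told apart. The labels do not say that replicates came from separate cultures, so p-values measure the spread between these libraries only.

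Telomeres are repeats at chromosome ends that shorten at each round of DNA replication. Telomerase extends them by reverse transcription, with TERT as the catalytic protein, TERC as the RNA template, and dyskerin (DKC1), NHP2, NOP10 and GAR1 as a protein core that binds TERC and also the H/ACA small nucleolar RNAs. Shelterin covers the repeats: TERF1 and TERF2 bind duplex DNA, POT1 binds the single-stranded overhang, ACD (TPP1) joins POT1 to TINF2 and recruits telomerase, TINF2 (TIN2) bridges the complex, and TERF2IP (RAP1) binds TERF2. Most differentiated cells keep TERT silent, while melanomas commonly express it. The Hermes melanocyte lines were immortalised with an introduced TERT gene, and gene-level counts cannot tell the introduced copy from the endogenous one.

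The libraries held between 30073071 and 43032311 counts, at which 3 counts on a gene correspond to 0.0697 to 0.0998 CPM (the count scaled to the library total), a limit that covers counting error only. Hermes 3A replicate 1 stood apart from the other Hermes 3A libraries, with a chi-square per gene of 101 and 106 against them and of 22.4 between replicates 2 and 3. Between the 501Mel libraries the chi-square per gene was 76.3, so these also differed more than Hermes 3A replicates 2 and 3. BPTF itself had 65.8 and 57.8 CPM in 501Mel and 45.8, 51.6 and 54.1 CPM in Hermes 3A, which without control libraries does not measure the silencing. The 7 melanocyte lineage markers were all detected, with a summed level of 12718 and 19661 CPM in 501Mel and of 31651 to 32728 CPM in Hermes 3A, although DCT had only 7.37 to 13.1 CPM in Hermes 3A. Of other cell types, the keratinocyte markers KRT5 and KRT1 were listed for neither line and KRT14 for 501Mel only, the 2 keratinocyte markers listed for both summed to 32.8 to 47.6 CPM, and the fibroblast list summed to 19.1 and 4.39 CPM in 501Mel and to 78.6 to 190 CPM in Hermes 3A. COL1A2 made up most of the fibroblast sum in Hermes 3A (69.5 to 187 CPM) and had 3 and 4 counts in 501Mel. LUM was next, with 359 and 88 counts in 501Mel and 306, 46 and 29 in Hermes 3A, COL1A1 had 281 counts in 501Mel replicate 1 and 16 to 43 in the other libraries, and DCN had at most 7. The 4 epithelial markers summed to 1.56 to 31.7 CPM, most of it CDH1 in Hermes 3A (15.9 to 31.3 CPM, edgeR call higher than in 501Mel), while KRT18 had 204 counts in 501Mel replicate 1 and at most 27 elsewhere, and EPCAM had 0 to 3. The part of other cells in the results below was not tested.

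TERT and DKC1 differed most between the lines, in opposite directions. TERT was 9.27-fold higher in Hermes 3A (95% interval 3.94 to 21.8), and DKC1 was 2.90-fold higher in 501Mel (95% interval 2.24 to 3.76). Within shelterin, TINF2 was 1.77-fold higher in Hermes 3A and POT1 was 1.59-fold higher in 501Mel. The remaining 6 genes, TERF1, TERF2, ACD, TERF2IP, RTEL1 and NHP2, did not pass the test. With edgeR's quasi-likelihood test on all genes and an adjusted p under 0.05, 4 of the 10 genes were thus called, 2 in each direction, where 48.2% of the 17975 genes tested were called, 24.2% higher in 501Mel and 24.0% higher in Hermes 3A. The share of called genes among the 10 was therefore near that of all genes. With a difference of at least 2-fold required as well, 2 of the 10 remained, TERT and DKC1, against 34.3% of all genes. By CPM the lines did not overlap for 7 of the 10 genes, against 69.8% of all genes tested. Of these, 5 were higher in 501Mel (37.9% of all genes) and 2 were higher in Hermes 3A (31.9%). After scaling with TMM factors TERF1 overlapped instead, and TERF2IP no longer did. Fewer cells that express a gene and less RNA per cell cannot be told apart in such bulk libraries.

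The sequences before the RefSeq start sites of the genes called in this comparison, other than TERT, are shown as promoter-proximal DNA of the genes that differed. Each is the 250 bases before the RefSeq start on GRCh38.p14, read 5′ to 3′ on the strand of the gene: chrX:154762614-154762863 (plus strand) for DKC1, chr7:124929826-124930075 (minus strand) for POT1 and chr14:24242675-24242924 (minus strand) for TINF2. Capitals mark every match, on either strand, to the motifs searched: the E-box CACGTG bound by MYC, USF and MITF, the core of the M-box CATGTG bound by MITF, the GC box GGGCGG bound by SP1, and the ETS core CCGGAAG.
DKC1: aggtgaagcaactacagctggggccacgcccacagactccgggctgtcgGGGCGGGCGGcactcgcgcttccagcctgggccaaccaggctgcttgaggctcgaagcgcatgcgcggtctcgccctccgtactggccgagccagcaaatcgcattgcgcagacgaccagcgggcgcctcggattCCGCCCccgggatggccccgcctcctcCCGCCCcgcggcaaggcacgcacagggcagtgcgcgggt
POT1: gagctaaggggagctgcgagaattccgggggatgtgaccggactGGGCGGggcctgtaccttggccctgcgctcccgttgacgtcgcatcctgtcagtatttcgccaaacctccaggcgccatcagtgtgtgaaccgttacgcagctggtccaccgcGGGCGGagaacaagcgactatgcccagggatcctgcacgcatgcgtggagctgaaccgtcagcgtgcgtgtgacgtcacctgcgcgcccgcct
TINF2: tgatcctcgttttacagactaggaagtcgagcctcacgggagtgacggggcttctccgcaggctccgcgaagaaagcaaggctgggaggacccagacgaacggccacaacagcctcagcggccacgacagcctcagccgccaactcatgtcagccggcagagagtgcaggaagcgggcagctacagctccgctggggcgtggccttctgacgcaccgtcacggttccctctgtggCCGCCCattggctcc
The RefSeq and GENCODE 29 starts differ, so that 122 bases of the DKC1 window and 158 bases of the POT1 window lie inside the gene as GENCODE 29 places it, and 0 bases of the TINF2 window do. The GC box was found 4 times before DKC1, where neighbouring matches overlap, 2 times before POT1 and 1 time before TINF2, and 42.6% of the 35116 promoter windows of this length hold it. No match to CACGTG (6.34% of all windows), CATGTG (9.42%) or CCGGAAG (8.52%) lay in these 3 windows. Among the other genes with a window, CACGTG was found before TERT, CATGTG before RTEL1 and CCGGAAG before TERF2IP, 1 time each. TERF1 and TERF2 had no window in the table. A match is only a run of letters, and no binding was measured here.

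TERT (ENSG00000164362, chromosome 5 of GRCh38 from 1253147 to 1295069, minus strand) encodes the reverse transcriptase of telomerase. It had 1595 and 745 counts in 501Mel and 16112, 5616 and 6600 counts in Hermes 3A, or 37.1 and 19.7 CPM against 387, 137 and 219 CPM. The groups did not overlap, and the lowest Hermes 3A library was above the highest 501Mel library. The replicates of each line also varied, with 28.4 ± 12.3 CPM (SD, n = 2) in 501Mel and 248 ± 127 CPM (SD, n = 3) in Hermes 3A. This spread was a coefficient of variation of 43.3% and 51.3%, far above the 2.92% and 1.03% that counting alone gives. The log2 fold change of 501Mel over Hermes 3A was -3.21 (standard error 0.525, edgeR adjusted p = 0.00256). Without Hermes 3A replicate 1, which had the most TERT counts, it was -2.72 (edgeR adjusted p = 0.00199).

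DKC1 (ENSG00000130826, chromosome X from 154762742 to 154777689, plus strand) encodes dyskerin, the pseudouridine synthase that stabilises TERC. It had 9336 and 7317 counts in 501Mel and 3155, 2682 and 1833 counts in Hermes 3A, or 217 and 193 CPM against 75.7, 65.6 and 61.0 CPM. Both 501Mel libraries were above all Hermes 3A libraries, and the replicates lay close together (205 ± 16.7 CPM, SD, n = 2, and 67.4 ± 7.56 CPM, SD, n = 3). The log2 fold change was 1.54 (standard error 0.158, edgeR adjusted p = 0.000384). The small nucleolar RNA SNORA36A, which lies within DKC1, had at most 2 counts in any library.

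NHP2 (ENSG00000145912, chromosome 5 from 178149460 to 178153967, minus strand) encodes another protein of the same core. It had 53.0 and 40.7 CPM in 501Mel and 68.4, 50.2 and 55.0 CPM in Hermes 3A. The ranges overlapped, and the log2 fold change of -0.37 did not pass the test (95% interval -0.87 to 0.12, edgeR adjusted p = 0.176). Over 27.4% of its exon length NHP2 overlaps RMND5B on the opposite strand, and since no strand setting is stated, reads of the 2 genes cannot be told apart there. RMND5B itself had between 26.5 and 31.4 CPM in every library.

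**Figure D1:**
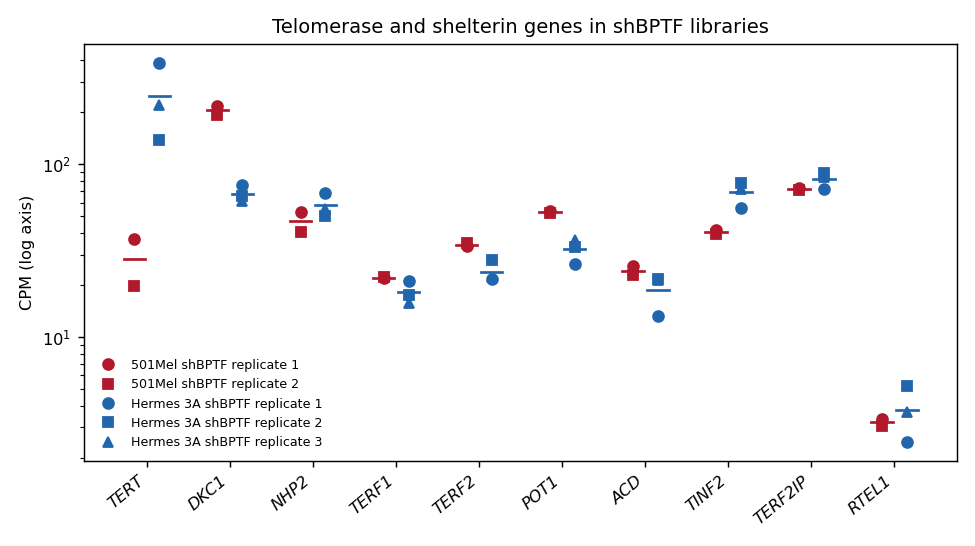
CPM of the 10 genes on a log axis, with 1 point per library (501Mel shBPTF, n = 2, red; Hermes 3A shBPTF, n = 3, blue) and a line at the mean of each cell line. TERT lies between 19.7 and 37.1 CPM in 501Mel and between 137 and 387 CPM in Hermes 3A, and DKC1 is separated the other way. The shelterin genes differ less, although 4 of the 6 lie wholly higher in 501Mel and 1 in Hermes 3A.

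Of the 6 shelterin genes, 1 was called higher in 501Mel, 1 was called higher in Hermes 3A and 4 were not called, a smaller share of called genes than the 48.2% over all genes tested. Their median log2 fold change was 0.26, beside 0.02 over all genes tested. POT1 (ENSG00000128513, chromosome 7 from 124822386 to 124929983, minus strand), which protects the single-stranded overhang, had 53.9 and 52.2 CPM in 501Mel and 26.5, 33.4 and 36.5 CPM in Hermes 3A. The 501Mel libraries were above all Hermes 3A libraries, and the log2 fold change was 0.67 (standard error 0.165, edgeR adjusted p = 0.0136). This call did not hold without 501Mel replicate 1 (edgeR adjusted p = 0.0609), without 501Mel replicate 2 (0.0565) or without Hermes 3A replicate 2 (0.0570), while its log2 fold change stayed between 0.55 and 0.77 in the fits that were tried. The antisense transcript POT1-AS1 had 11 to 36 counts and shares 1.88% of the exon length of POT1.

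TINF2 (ENSG00000092330, chromosome 14 from 24239643 to 24242674, minus strand), the bridge between the duplex-binding and overhang-binding parts, had 41.6 and 39.4 CPM in 501Mel and 56.2, 78.5 and 72.2 CPM in Hermes 3A. All Hermes 3A libraries were above both 501Mel libraries, with replicate 1 the lowest of them. The log2 fold change was -0.82 (standard error 0.161, edgeR adjusted p = 0.00529), and the call held with each library left out in turn.

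The duplex-binding subunits did not pass the test. TERF2 (ENSG00000132604, chromosome 16 from 69355561 to 69408571, minus strand), which protects ends from being joined, had 33.5 and 34.9 CPM in 501Mel and 21.6, 27.7 and 22.3 CPM in Hermes 3A. The lines did not overlap, yet the log2 fold change of 0.46 had an edgeR adjusted p of 0.0570, and it passed only where libraries were scaled by their total counts (0.0434). TERF1 (ENSG00000147601, chromosome 8 from 73008864 to 73048122, plus strand), which regulates telomere length, had 21.9 and 22.2 CPM in 501Mel and 21.2, 17.5 and 15.8 CPM in Hermes 3A. Its lines were separate by CPM but overlapped once the libraries were scaled with TMM factors, and the log2 fold change was 0.21 (95% interval -0.28 to 0.71, edgeR adjusted p = 0.431).

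ACD (ENSG00000102977, chromosome 16 from 67657512 to 67660815, minus strand), the partner of POT1 that recruits telomerase, had 25.7 and 22.7 CPM in 501Mel and 13.3, 21.6 and 21.4 CPM in Hermes 3A. The 501Mel libraries were the higher ones, but only Hermes 3A replicate 1 lay far below them, and the log2 fold change of 0.31 did not pass the test (95% interval -0.24 to 0.87, edgeR adjusted p = 0.300). TERF2IP (ENSG00000166848, chromosome 16 from 75647786 to 75761872, plus strand) had 73.3 and 71.0 CPM in 501Mel and 72.1, 89.5 and 84.3 CPM in Hermes 3A. The lines overlapped by CPM, were separate and higher in Hermes 3A after scaling with TMM factors, and the log2 fold change was -0.24 (95% interval -0.55 to 0.07, edgeR adjusted p = 0.170). TERF2IP shares 5.21% of its exon length with KARS on the opposite strand, which had 68.3 to 190 CPM and was itself called higher in 501Mel.

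RTEL1 (ENSG00000258366, chromosome 20 from 63657810 to 63696253, plus strand), the helicase that unwinds telomere loops, had the fewest counts of the 10 genes, with 144 and 115 in 501Mel and 103, 212 and 111 in Hermes 3A. This came to 3.35 and 3.04 CPM against 2.47, 5.19 and 3.69 CPM, and the Hermes 3A libraries lay on both sides of the 501Mel libraries. The log2 fold change was -0.30 (95% interval -1.20 to 0.61, edgeR adjusted p = 0.553), an interval that allows a difference of 2-fold. The annotation holds a readthrough gene, RTEL1-TNFRSF6B, on the same strand, which shares 70.2% of the exon length of RTEL1. It had 10.0 and 10.99 CPM in 501Mel and 6.65, 21.0 and 12.6 CPM in Hermes 3A, with replicate 2 the highest for both genes. How reads on the shared exons were counted is not stated, so the level of RTEL1 is uncertain.

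**Figure D2:**
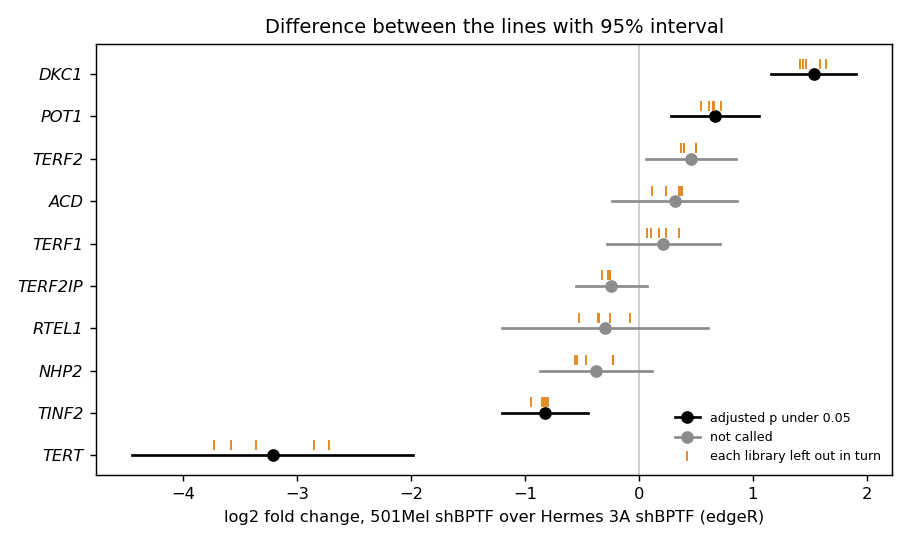
log2 fold change of 501Mel shBPTF over Hermes 3A shBPTF for the 10 genes (edgeR, 2 against 3 libraries), with points and bars for the estimate and its 95% interval and orange ticks for fits with each library left out in turn. DKC1 (1.54) and POT1 (0.67) lie to the right, TINF2 (-0.82) and TERT (-3.21) to the left, and each of these keeps its direction in the 5 fits.

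The levels of different genes were compared within a line per length, as CPM per kb of the summed exons of the gene. In 501Mel the highest level was that of DKC1 (48.8 ± 3.98 CPM per kb, SD, n = 2), followed by NHP2 (31.0 ± 5.74), TERF2IP (21.4 ± 0.484), TINF2 (14.9 ± 0.551) and POT1 (9.001 ± 0.199), and the ranges of these neighbours did not overlap. ACD (7.52 ± 0.659), TERT (6.17 ± 2.67) and TERF2 (6.09 ± 0.184) came next, and TERT overlapped both of its neighbours. TERF1 (2.50 ± 0.0223) and RTEL1 (0.496 ± 0.0339) were lowest. In Hermes 3A the order began with TERT (53.9 ± 27.6 CPM per kb, SD, n = 3), which overlapped NHP2 (38.3 ± 6.23). TINF2 (25.4 ± 4.24) and TERF2IP (24.3 ± 2.64) overlapped each other and lay above DKC1 (16.0 ± 1.799). ACD (5.82 ± 1.48), POT1 (5.45 ± 0.865) and TERF2 (4.25 ± 0.596) overlapped in turn, and TERF1 (2.06 ± 0.312) and RTEL1 (0.588 ± 0.211) were again lowest.

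TERT thus held rank 6 and rank 8 among the 10 genes in the 501Mel libraries and rank 1 or 2 in each Hermes 3A library. Among all genes tested with a known exon length, its level per length stood between percentiles 55.6 and 67.5 in 501Mel and between 91.0 and 97.5 in Hermes 3A. The length used is that of the annotated gene, and reads of the introduced TERT cannot be told apart in Hermes 3A. The TERT rank and percentile there may therefore not be those of the endogenous gene. DKC1 held rank 1 in both 501Mel libraries and rank 5 in all 3 Hermes 3A libraries. With the longest transcript as the length, 3 genes in 501Mel and 6 in Hermes 3A took another rank, and the mean of NHP2 (66.9 CPM per kb) was then above that of TERT (61.7) in Hermes 3A.

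Ratios of 2 subunits within a library do not depend on how libraries are scaled, and 5 such ratios were compared with an exact two-sided permutation test over the 5 libraries, whose smallest possible p is 0.1. TERT had 0.156 and 0.0930 times the level per length of DKC1 in 501Mel and 4.66, 1.91 and 3.29 times in Hermes 3A. The ratio was 25.6-fold higher in Hermes 3A, and the libraries of the lines did not overlap. This separation follows from those of TERT and DKC1 by CPM, which go opposite ways, so it is no independent result. The p was the smallest the permutation test can give (exact p = 0.1, 0.167 adjusted over the 5 ratios). The Hermes 3A ratio includes any reads of the introduced TERT gene. NHP2 to DKC1 was 0.680 and 0.587 in 501Mel and 2.51, 2.13 and 2.51 in Hermes 3A, also without overlap (exact p = 0.1, adjusted 0.167).

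Within shelterin, TINF2 to ACD was 1.92 and 2.06 in 501Mel and 5.03, 4.32 and 4.0 in Hermes 3A, a 2.23-fold difference without overlap (exact p = 0.1, adjusted 0.167). This separation too follows from the CPM of the genes, all higher in Hermes 3A for TINF2 and all higher in 501Mel for ACD. POT1 to ACD was 1.14 and 1.26 in 501Mel and 1.09, 0.845 and 0.930 in Hermes 3A (exact p = 0.2, adjusted 0.25). TERF1 to TERF2 was 0.417 and 0.405 in 501Mel and 0.624, 0.401 and 0.450 in Hermes 3A, with overlap (exact p = 0.7). As a share of the 6 shelterin levels per length added together, TINF2 took 24.5% and 24.2% in 501Mel and 36.4% to 38.7% in Hermes 3A. POT1 took 14.6% and 14.7% in 501Mel and 7.58% to 8.82% in Hermes 3A. TERF2IP took 34.7% and 34.9% in 501Mel and 35.5% to 37.5% in Hermes 3A. TERF2 took 9.52% and 10.3% in 501Mel and 5.67% to 6.75% in Hermes 3A, and ACD 12.8% and 11.7% against 7.24% to 9.48%. TERF1 took 3.97% and 4.18% against 2.55% to 4.21%, the only share that overlapped between the lines. The shares depend on one another, since a larger one lowers the rest. The sum itself was 62.6 and 60.2 CPM per kb in 501Mel and 56.9 to 74.7 CPM per kb in Hermes 3A, so the total overlapped between the lines.

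The other genes of telomere biology were taken from 4 lists: partners and biogenesis factors of telomerase, the CST complex with DNA polymerase alpha-primase, shelterin partners and end-processing factors, and telomeric chromatin with RNA surveillance. Of 54 listed genes 52 were tested, and 31 were called higher in 501Mel and 4 higher in Hermes 3A, beside the 24.2% and 24.0% of all genes. Their median log2 fold change was 0.65, against 0.02 over all genes tested. Without either of the 501Mel libraries the number called higher in Hermes 3A was 2. TERC was not analysed here, since its identifier was in neither set of tables, and TEN1 was listed for Hermes 3A only.

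Among the telomerase partners, 6 of the 12 tested genes were called higher in 501Mel, 1 was called higher in Hermes 3A and 5 were not called. Of all genes tested, 24.2% were called higher in 501Mel and 24.0% higher in Hermes 3A. GAR1, which completes the H/ACA core, had 78.5 and 89.2 CPM in 501Mel and 41.4 to 45.3 CPM in Hermes 3A (log2 fold change 0.90, edgeR adjusted p = 0.00193). NOP10, another protein of that core, went the other way, with 63.4 and 53.3 CPM against 86.0 to 125 CPM (log2 fold change -0.84, edgeR adjusted p = 0.0185). DKC1 and GAR1 were thus higher in 501Mel, NOP10 was higher in Hermes 3A, and NHP2 was not called. PARN, the nuclease that trims the end of TERC, had a log2 fold change of 1.44, NOLC1, a nucleolar chaperone of H/ACA particles, one of 1.43, and RUVBL1, an ATPase of telomerase assembly, one of 1.36, all called higher in 501Mel. NAF1 (0.28), which loads the core, and WRAP53 (0.54), which brings telomerase to Cajal bodies, were not called.

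The end-replication list separated into its parts. CTC1 and STN1 of the CST complex, which fills in the strand opposite to the one telomerase extends, had log2 fold changes of -0.12 and -0.02 and were not called. All 4 subunits of DNA polymerase alpha-primase were called higher in 501Mel, where 24.2% of all genes tested were. Among them were PRIM1 (log2 fold change 3.26), POLA1 (3.06) and PRIM2 (2.09). POLA1 had 122.5 and 117 CPM in 501Mel and 12.7 to 14.9 CPM in Hermes 3A.

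Of 21 shelterin partners and end-processing factors, 11 were called higher in 501Mel, 2 higher in Hermes 3A and 8 were not called. The shares over all genes tested were 24.2% and 24.0% in the 2 directions. The helicases BLM (log2 fold change 2.77) and PIF1 (2.10) and the end-processing nuclease DCLRE1B (1.98), which binds TERF2, were the called genes with the largest differences. DCLRE1B had 46.8 and 41.2 CPM in 501Mel and 6.58, 13.7 and 11.97 CPM in Hermes 3A. TNKS1BP1, a binding partner of tankyrase, was called higher in Hermes 3A (-1.797), as was RAD50 (-0.43, edgeR adjusted p = 0.0470). In the chromatin and surveillance list 10 of 13 genes were called higher in 501Mel and 1 higher in Hermes 3A, beside the same shares of all genes. The former were led by the histone chaperone ASF1B (3.82) and the histone methyltransferases SUV39H2 (2.27) and SUV39H1 (2.01). The latter was the telomerase-associated factor SMG6 (-0.71).

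The proliferation list moved with these genes. All 14 proliferation genes were called higher in 501Mel, where 24.2% of all genes tested were. Their summed level was 3108 and 2494 CPM in 501Mel and 435 to 552 CPM in Hermes 3A. The largest differences were those of TOP2A (log2 fold change 4.50), CCNA2 (3.69) and MKI67 (3.58). The part of proliferation in the higher DKC1, POT1 and DNA polymerase alpha-primase levels of 501Mel was not tested. TERT differed in the opposite direction from these genes between the lines. Within each line, TERT had the same order of libraries as the summed proliferation level. By replicate number, that sum was 3108 and 2494 CPM in 501Mel and 552, 435 and 490 CPM in Hermes 3A. TERT had 37.1 and 19.7 CPM in 501Mel and 387, 137 and 219 CPM in Hermes 3A. Of the 14 genes, PCNA, MCM7, MCM3, MCM2 and CCNB1 did not have this order, and the rest did. In Hermes 3A, PCNA had 141, 176 and 177 CPM, MCM7 59.9, 73.6 and 74.8 CPM, and MCM3 76.3, 65.1 and 61.9 CPM. In 501Mel, MCM2 had 129 and 164 CPM and CCNB1 133 and 139 CPM. How many of all genes had this order was not determined. A link of TERT to proliferation was not tested.

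**Figure D3:**
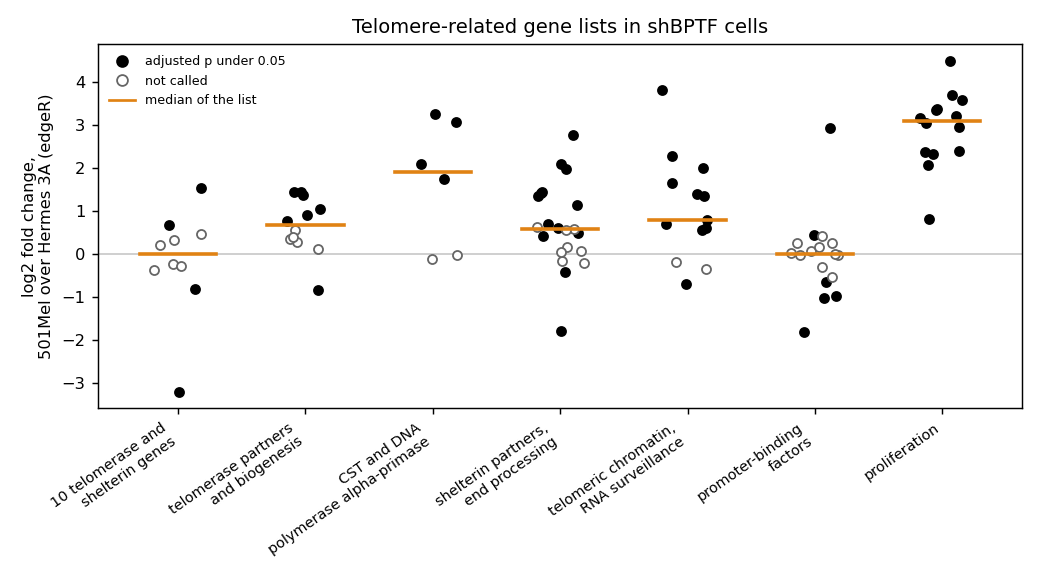
log2 fold change of 501Mel shBPTF over Hermes 3A shBPTF (edgeR) for the 10 genes and 6 lists, 1 point per gene tested, filled where the adjusted p was under 0.05, with an orange line at the median. The 10 genes centre on 0 with TERT far below, 4 genes of DNA polymerase alpha-primase lie between 1.73 and 3.26, and the proliferation genes have a median of 3.10.

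Of 17 tested transcription factors known to act on TERT transcription, 2 were called higher in 501Mel and 4 higher in Hermes 3A, or 6 in all, a smaller share than the 48.2% of all genes. E2F1 (log2 fold change 2.93) and GABPA (0.44) were the former, and the factors with the largest differences the other way were MXD4 (-1.82), USF2 (-1.02) and TFAP2A (-0.98). MXD4, a MAX partner that opposes MYC, had 32.4 and 39.5 CPM in 501Mel and 69.9, 147 and 151 CPM in Hermes 3A. MITF had 702 and 854 CPM in 501Mel and 643 to 678 CPM in Hermes 3A (0.17, edgeR adjusted p = 0.429), and was not called. The part of these factors in the TERT difference was not tested. Reads of the introduced and the endogenous TERT gene cannot be told apart in Hermes 3A.

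The genes whose pattern over the 5 libraries was nearest to that of TERT were found from the root mean square difference of mean-centred log2 CPM, over 17974 other genes. They were HLA-DMA (0.0708), ADAMTS12 (0.114) and LMO7 (0.144). HLA-DMA, a chaperone of class II antigen presentation, had 20 and 7 counts in 501Mel and 201, 71 and 85 counts in Hermes 3A, and like TERT was highest in Hermes 3A replicate 1. LMO7, an actin-associated protein, had 4.09 and 2.09 CPM in 501Mel and 39.4, 18.8 and 24.6 CPM in Hermes 3A. ADAMTS12, a secreted metalloprotease, had 8 and 4 counts in 501Mel and 111, 35 and 42 counts in Hermes 3A. With 5 libraries in 2 lines, likeness of this kind is a description of these libraries.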

How the data were processed

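The authors deposited raw read counts per gene, whole numbers without normalization, 1 table per library. The submitters' processing notes name CASAVA 1.8, TopHat 1.4.1, Bowtie 0.12.7 and hg19. The counting program, annotation release and strand setting are not given in the sources used here. Per the labels, total RNA was depleted of ribosomal RNA and the cDNA treated with duplex-specific nuclease, which removes abundant cDNA and can compress high levels.

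The tables list 37259 genes for 501Mel and 34033 for Hermes 3A, and the 31029 in both were used. Annotation differences between the tables and the lines cannot be told apart. Names, lengths and coordinates are those of GENCODE 29 (GRCh38), not the build of the counts. Differences were tested with edgeR 4.0.16 (TMM, filterByExpr, quasi-likelihood F-test, Benjamini-Hochberg over 17975 genes), with line as the term. The fit was also run on simulated counts with 200 changed genes, far fewer than were called here. That run cannot check the scaling or the error rates where so many genes differ. Standard errors were derived from the F statistic. DESeq2 1.42.0, other scalings, no filter, a replicate block and leaving out libraries were alternatives. CPM used deposited totals. All 10 genes were named, and from each list the called genes with the largest differences, up to 3 a direction. For GAR1, NOP10, NAF1 and WRAP53 values were given regardless. Genes and lists were chosen with earlier results of these data known.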

Additional observations from a re-analysis of the deposited data

How the results depend on the processing

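TERT, DKC1 and TINF2 kept their direction and their call under all 11 alternatives, with log2 fold changes from -3.73 to -2.72, from 1.42 to 1.64 and from -0.95 to -0.76. POT1 lost its call in 3 of the fits that left out 1 library, TERF2 gained one with total counts only, and no gene changed direction. Requiring a log2 fold change of at least 1 left 2 of the 10 genes, TERT and DKC1, 1 in each direction, and 22 of the 4 telomere lists, 1 of them higher in Hermes 3A. For the lists and for all genes this rule was added after seeing the data. Leaving out 1 library gave 1 to 2 of the 10 genes called higher in 501Mel, 2 to 3 list genes called higher in Hermes 3A, below the 4 with all libraries, and 2864 to 4595 genes of the whole table called higher in 501Mel, the lowest without 501Mel replicate 1. With the longest transcript as the length, 3 genes in 501Mel and 6 in Hermes 3A took another rank. Counting the genes of either set of tables, absent ones as 0, moved no count by over 1.5 times and was also added after seeing the data.

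The replicate numbers were not taken to pair libraries, since only 2 numbers are shared by the lines. The correlations of deviations were 0.105 and 0.121 for libraries with the same number and -0.105 and -0.121 for the crossed ones. With 2 libraries in 501Mel their deviations mirror each other, so these values cannot decide on pairing. Blocking on the replicate number left 4 of the 10 genes, 30 genes of the 4 lists and 7461 of all genes called, and this replicate block changed no call on the 10 genes. Depth limits RTEL1 most, with 103 to 212 counts, while for TERT the spread between replicates and not counting sets the error.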
